A study of Mus musculus with 72 samples.

Results

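Expression of 9 genes of the endoplasmic reticulum (ER) stress response was followed in mouse liver: Hspa5, Hsp90b1, Pdia4, Sdf2l1, Dnajb9, Creld2, Herpud1, Xbp1 and Ddit3. They were picked by symbol, through the Ensembl gene identifiers of the count table, and occupied 10 of its 55573 rows, because Ddit3 was listed under a second identifier (105 bases of exon, all inside the exons of the first) that received 0 counts in every library. Livers came from adult male C57BL/6 mice that carried loxP-flanked Bmal1 (Bmal1 fl/fl, called WT) or the same alleles with Albumin-Cre (called LKO). This transgene acts in hepatocytes, and which other cells of an LKO liver keep Bmal1 was not measured. Mice of each genotype were raised with a conventional, specific-pathogen-free microbiota (SPF) or germ free (GF), fed without restriction on an equal light and dark cycle, and 3 were taken for each group at 6 zeitgeber times (ZT, hours after lights on): ZT2, ZT6, ZT10, ZT14, ZT18 and ZT22, the last 3 in the dark. This gave 18 libraries in each of the 4 groups and 72 in all.

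The ER folds the proteins that a cell secretes or places in its membranes, and the hepatocyte, which makes most plasma proteins, carries a heavy load of this work. When unfolded proteins build up, the sensors IRE1, PERK and ATF6 start the unfolded protein response: IRE1 splices Xbp1 mRNA into the form that encodes an active transcription factor, ATF6 is cut free from the membrane, and PERK slows translation while it favours ATF4 and then Ddit3. XBP1 and ATF6 raise chaperones and degradation factors. In mouse liver several of these genes are known to follow the daily cycle of feeding, which falls mostly in the dark. Counts per gene do not separate spliced from unspliced Xbp1.

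ATF6 and XBP1 are known to act through the ER stress response element, a CCAAT box and a CCACG motif held 9 bases apart (ERSE), and through a compact form of it (ERSE-II: ATTGG, 1 base of any kind, then CCACG). The stretches shown are those of Hspa5, Hsp90b1, Creld2 and Herpud1, which held such an element, and of Dnajb9, for its E-box described below. Sdf2l1 and Pdia4, which also carry results given later, held none of these. The promoters were searched on either strand from 250 bases before to 50 bases after the start of the RefSeq transcript (build GRCm38.p6), and all 9 genes had 1 promoter in the table. Capitals mark the fixed letters of an element, and each sequence is written 5′ to 3′ along the strand of its gene.
Hspa5, chr2:34772020-34772048, plus strand: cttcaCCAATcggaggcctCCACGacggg
Hsp90b1, chr10:86705521-86705668, minus strand: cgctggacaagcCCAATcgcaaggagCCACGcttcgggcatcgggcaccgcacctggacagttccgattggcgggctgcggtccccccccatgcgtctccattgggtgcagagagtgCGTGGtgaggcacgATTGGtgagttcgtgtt
Creld2, chr15:88819508-88819550, plus strand: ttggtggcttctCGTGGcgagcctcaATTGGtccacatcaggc
Herpud1, chr8:94386365-94386399, plus strand: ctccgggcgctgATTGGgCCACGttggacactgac
Dnajb9, chr12:44210158-44210187, minus strand: acaacagttttcCACGTGcgcgtagggcgc

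An ERSE stood in 3 of the 9 promoters and in 0.119% of the 32851 promoters of the table. It lay 65 to 47 bases before the start in Hspa5, and Hsp90b1 held 1 copy on each strand, the far one in the sense direction and the near one inverted. In Creld2 it was inverted, 126 to 108 bases before the start. The ERSE-II occurred in Herpud1 alone among the 9 and in 0.0365% of all promoters. The last sequence shows the only E-box (CACGTG, the kind of site that BMAL1 is known to bind) among the 9 windows, in Dnajb9, against 7.15% of all promoters, and it overlaps a CCACG on the same strand. The single motif CCACG, present in 32.8% of all promoters, occurred in 7 of the 9, and the XBP1 site TGACGTGG, present in 0.676%, occurred in 0. Neither Xbp1 nor Ddit3 held a CCACG in this window.

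The libraries held 17369927 to 22076113 counted reads. Some libraries went against their labels by their clock genes. Npas2, which rises when BMAL1 is lost, was at 0.219 CPM (counts scaled to a library of equal size) in SPF LKO ZT14 replicate 2 beside 25 and 24 in the other two, and at 1.82 in SPF LKO ZT18 replicate 1 beside 36.7 and 27.5, so both looked WT by this gene. Arntl, the gene symbol of Bmal1, was at 2.12 CPM in SPF WT ZT14 replicate 3 beside 15.8 and 19.5, and at 8.21 in GF WT ZT6 replicate 3 beside 1.62 and 2.43. Npas2 was low in these WT libraries (0.207 and 0.115), so neither looked LKO by this gene. In the SPF library Nr1d1 was at 85.2 beside 8.56 and 3.10, and Dbp at 67.7 beside 7.66 and 4.26. In the GF library Nr1d1 was at 9.36 beside 50.5 and 49.2, and Dbp at 16.4 beside 59.4 and 42.9. By these genes the mismatch of both was with their ZT, not their genotype. The members' calls that change without these 4 libraries are given with and without them, as are the counts of the pathway lists. Other values of members are given with all libraries unless stated, and values of single list genes are given with them. The tissue was liver by its markers: all 6 hepatocyte markers were detected in each group, and the defining pancreatic acinar genes Cpa1, Pnlip, Ctrb1 and Prss2 had a median of 0 in every group. The summed hepatocyte markers had medians of 59954 CPM in SPF LKO and 60865 in GF LKO mice against 108966 in SPF WT and 139221 in GF WT mice. Most of this gap was Alb, at 36414 and 32080 CPM in LKO against 83712 and 104308 in WT. Tat was also lower in LKO mice of each status (1308 against 2090 in SPF and 2064 against 2756 in GF), Cyp2e1 (7621 against 9357) and Ttr (5880 against 6891) mainly in GF, and Apoa1 was at 8072 and 11887 in LKO against 7959 and 11857 in WT. The acinar sum, nearly all of it Cela1, had medians from 28.8 in SPF WT to 107 in GF LKO mice. B and plasma cell markers, from cells that also carry a large ER, summed to 5.61 to 36.6 CPM over all groups, with medians from 10.9 in SPF LKO to 20.9 in GF LKO. The cholangiocyte sum, most of it Spp1, was higher in LKO mice, beside the genotype differences given later. Its medians were 70.7 against 53.7 in SPF and 91.0 against 43.8 in GF mice. Spp1 was at 58.9 and 79.9 CPM in SPF and GF LKO against 44.3 and 34.2 in WT mice, and Sox9 was also higher. In SPF mice Krt19 (0.935 against 1.31), Krt7 (0.560 against 0.793) and Epcam were lower in LKO. In GF mice Krt7 was lower in LKO, and Krt19 and Epcam were slightly higher. The part of these markers in the results was not tested, and in bulk tissue fewer cells of a type and less RNA per cell cannot be told apart.

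All 9 genes passed the filter on low counts in every comparison. On a scale of CPM per kilobase of exon (medians over the 72 libraries), Hspa5, which encodes the main ER chaperone BiP, was the most abundant at 261, followed by its partner Hsp90b1 (GRP94, the ER member of the HSP90 family) at 185 and Herpud1, a membrane protein of the degradation complex, at 147. The disulfide isomerase Pdia4 followed at 89.5, Xbp1 at 64.2, and the BiP co-chaperone Dnajb9 (ERdj4) at 40.7. The ER lumen proteins Sdf2l1 and Creld2 were close to each other at 30.8 and 28.6. Ddit3, which encodes the stress transcription factor CHOP, was the lowest at 3.06, with 43 to 257 counts per library against 12341 to 39494 for Hspa5, so its counts carry the largest sampling error of the set.

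The 6 chaperones and folding proteins (Hspa5, Hsp90b1, Pdia4, Sdf2l1, Dnajb9 and Creld2) had their highest mean at ZT14, ZT18 or ZT22 in every group. Hspa5 stood at 1041 ± 74.1 CPM (mean ± SD, n = 3) at ZT2 in SPF WT mice, fell to 841 ± 234 at ZT10 and reached 1648 ± 245 at ZT18, before 858 ± 179 at ZT22. In GF LKO mice it went from 705 ± 35.2 at ZT6 to 1892 ± 259 at ZT18, and the 3 values of 664, 722 and 728 at ZT6 lay far below the 1821, 2179 and 1676 at ZT18. SPF LKO mice ran from 705 ± 33.4 at ZT6 to 1453 ± 410 at ZT18, where the library that looked WT was the lowest at 994 and the other two were at 1782 and 1582. GF WT mice had the highest mean of the light phase, with 1384 ± 210 at ZT2, and peaked at 1752 ± 211 at ZT18.

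**Figure D1:**
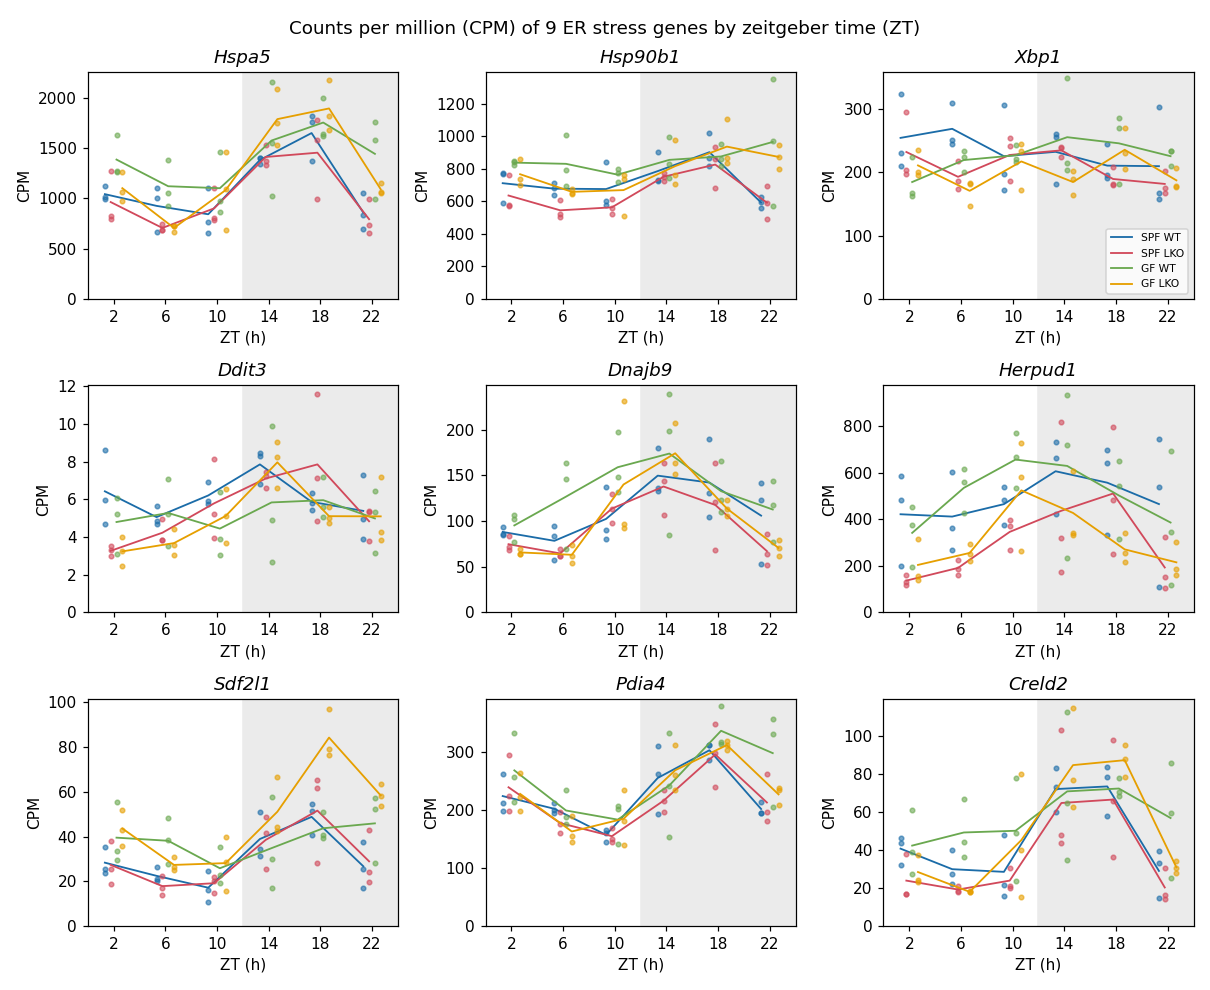
CPM (linear axis from 0) of each of the 9 genes against ZT in hours, with 1 point per mouse, lines through the means of 3 mice, a colour per group, and the dark phase shaded. Creld2, Sdf2l1 and Hspa5 have their highest means in the dark in all groups (Creld2 in GF LKO mice from 17.9 at ZT6 to 87.1 at ZT18), whereas Xbp1 stays within 146 to 348 throughout.

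A 24 h cosine was fitted to each gene within each group and tested with edgeR's quasi-likelihood test, and a gene was called at a Benjamini-Hochberg adjusted p under 0.05 over all genes. In SPF WT mice 5 of the 9 genes were rhythmic, when 15% of all genes tested were. In SPF LKO mice 8 of 9 were (21.2% of all genes), in GF WT mice 1 of 9 (26.7%), and in GF LKO mice 8 of 9 (35%). Every called fit peaked between ZT11.9 and ZT20.4, while 49.8% to 55.9% of all rhythmic genes in a group peaked in the dark. The median amplitude of the 9 (the distance from the mean level to the peak, in log2 units) was 0.30 in SPF WT, 0.56 in SPF LKO, 0.33 in GF WT and 0.62 in GF LKO mice, beside 0.17 to 0.18 over all genes tested.

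Creld2, an ER calcium-binding protein with isomerase activity, had the largest amplitude of the 9 in SPF WT and GF LKO mice. Its libraries ran from 15.3 through a median of 35.8 to 114 CPM in GF LKO, from 13.9 through 25.8 to 103 in SPF LKO, from 14.7 through 41.8 to 83.5 in SPF WT and from 23.4 through 59.9 to 113 in GF WT mice. The fitted change from trough to peak was 4.59-fold in GF LKO (peak ZT15.8, adjusted p = 0.000134), 3.70-fold in SPF LKO (adjusted p = 0.00523), 2.40-fold in SPF WT (adjusted p = 0.0424) and 1.67-fold in GF WT mice (adjusted p = 0.245). The lowest mean of each LKO group fell at ZT6, at 17.9 ± 0.581 in GF LKO (17.7, 18.6 and 17.6) and 19.1 ± 1.86 in SPF LKO mice, and that of the SPF WT group at ZT10.

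Sdf2l1, a component of the ER chaperone complex around BiP, changed 3.02-fold in GF LKO (peak ZT19.1, adjusted p = 2.79e-05), 2.67-fold in SPF LKO and 2.20-fold in SPF WT mice, all called, and 1.58-fold in GF WT mice, where it was not called (adjusted p = 0.218). Dnajb9 had the earliest peak of the chaperones in every group but SPF WT, at ZT12.8 to ZT14.3 (ZT16.2 in SPF WT), with 2.94-fold in GF LKO, 2.17-fold in SPF LKO and 1.94-fold in SPF WT mice, all called, and 1.75-fold in GF WT mice (adjusted p = 0.0646). Hspa5 changed 2.36-fold in GF LKO, 1.89-fold in SPF LKO and 1.70-fold in SPF WT mice, also called, and 1.55-fold in GF WT mice (adjusted p = 0.0672). Pdia4, late in the night at ZT18.2 to ZT20.4, was the single gene called in all 4 groups, with fitted changes of 1.51-fold to 1.79-fold. Hsp90b1 moved least of the chaperones: it was called in the LKO groups alone, at 1.44-fold in each, and read 1.27-fold in SPF WT (adjusted p = 0.231) and 1.18-fold in GF WT mice (adjusted p = 0.488). With ZT as a factor of 6 levels in place of the cosine, both LKO calls of Hsp90b1 were lost (adjusted p = 0.0670 and 0.0637). The calls of Sdf2l1 in SPF LKO (adjusted p = 0.0516), Dnajb9 in SPF WT (0.173) and Pdia4 in GF WT mice (0.107) were lost as well.

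Herpud1, which recruits the ubiquitin ligase of ER-associated degradation, was rhythmic in SPF LKO (3.81-fold, peak ZT14.7, adjusted p = 0.00699) and GF LKO mice (2.6-fold, peak ZT11.9, adjusted p = 0.00257). In WT mice it was not called, at 1.49-fold in the SPF group (adjusted p = 0.514) and 1.93-fold in the GF group (adjusted p = 0.167). Its WT values were spread widely: at ZT22 the 3 SPF WT mice read 744, 540.2 and 111 CPM and the 3 GF WT mice 694, 345 and 118. Ddit3 was likewise called in SPF LKO (2.29-fold) and GF LKO mice (2.12-fold), and read 1.27-fold and 1.21-fold in SPF and GF WT mice, with adjusted p of 0.407 and 0.775. With ZT as a factor, the SPF LKO calls of Herpud1 and Ddit3 were lost (adjusted p = 0.0769 and 0.0529) and their GF LKO calls were kept. Xbp1 was called in no group: its fitted changes were 1.13-fold to 1.3-fold, with adjusted p from 0.152 to 0.548 in the quasi-likelihood test, and its peak times ranged from ZT6.0 to ZT17.4.

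**Figure D2:**
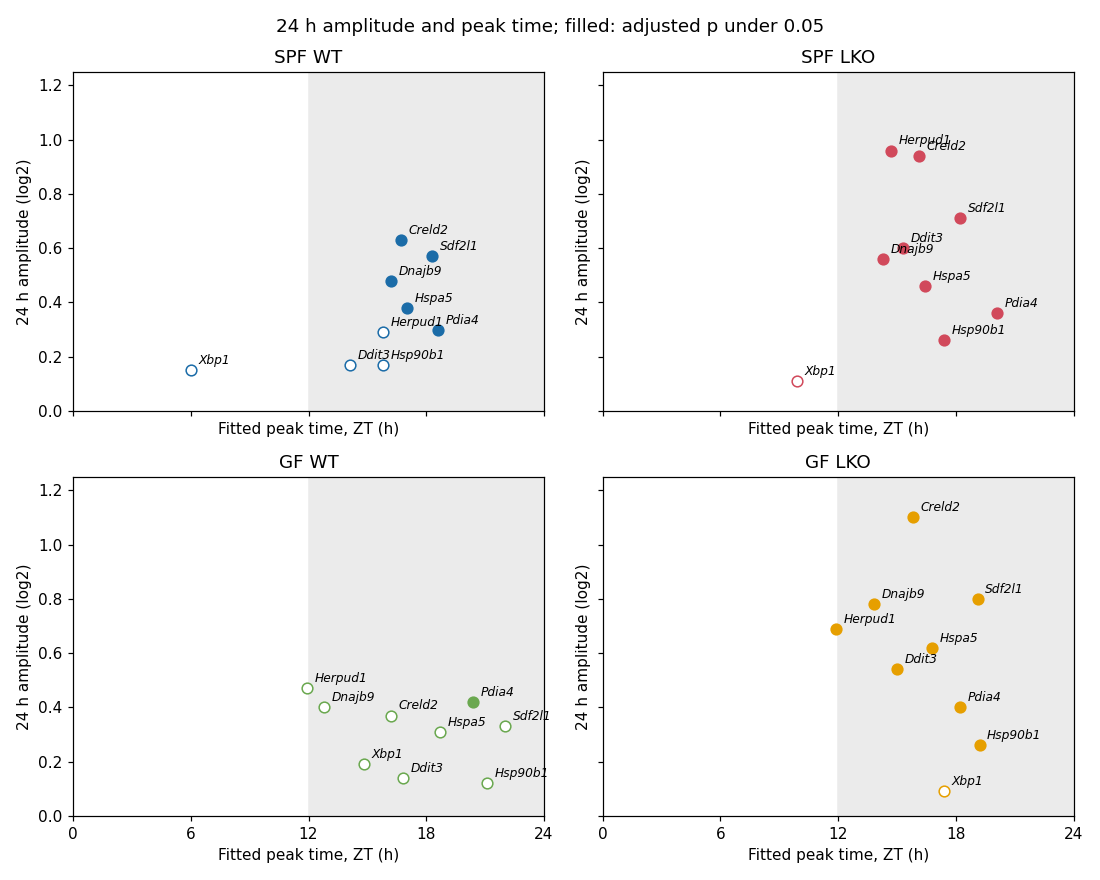
Fitted amplitude (log2 units, from the mean level to the peak) against fitted peak time (ZT in hours) of each gene, 1 panel per group, dark phase shaded. Filled points had an adjusted p under 0.05: 5 in SPF WT, 8 in SPF LKO, 1 in GF WT and 8 in GF LKO mice, and Xbp1 was open in all 4 panels.

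The larger count of rhythmic genes in LKO mice was not matched by a called difference in rhythm, and with ZT as a factor the counts were 4 in SPF WT and 4 in SPF LKO, against 0 in GF WT and 7 in GF LKO mice. The share of all genes called with ZT as a factor is not given. The amplitude was larger in LKO than in WT mice for 8 of 9 genes in SPF mice and 7 of 9 in GF mice. The share of all genes with a larger amplitude in LKO mice was not computed. Over all genes the median amplitude was 0.17 in both SPF groups and 0.18 in both GF groups. The test of the difference in rhythm called 0 of 9 in either (adjusted p from 0.305 to 0.926 in SPF mice, where 1.12% of all genes were called, and from 0.1 to 0.863 in GF mice, where 6.38% were). At an unadjusted p under 0.05 it held 1 and 3 genes, and limma on transformed counts called 0 in each. Between GF and SPF mice that test called 0 of 9 in WT (0.0470% of all genes, and 0 members at an unadjusted p under 0.05) and 0 of 9 in LKO mice (5.34% of all genes, and 1 member at an unadjusted p under 0.05), with limma also at 0. The spread between mice of the same group and ZT was wider in GF WT mice, with a median SD over the 9 genes of 0.51 log2 units against 0.33 to 0.35 in the other groups, and its part in the lower count there was not tested. Without the libraries that went against their labels, Creld2 and Hspa5 were no longer called in SPF WT mice (adjusted p = 0.0624 and 0.0580) and Dnajb9, Sdf2l1 and Pdia4 remained (17.5% of all genes), while Hspa5 and Dnajb9 joined Pdia4 in GF WT mice (adjusted p = 0.0402 and 0.0413, 31.5% of all genes). The 8 genes of SPF LKO mice kept their calls (18.1% of all genes).

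Loss of Bmal1 in hepatocytes was next read as a level, with all ZT pooled. Herpud1 was lower in LKO than in WT mice under each microbial status, and no other member was called. Its SPF WT libraries ran from 111 through a median of 511 to 744 CPM and its SPF LKO libraries from 104 through 236 to 817. GF WT libraries ran from 118 through 538 to 933 and GF LKO libraries from 139 through 277 to 727. The groups overlapped over nearly their whole range, and the difference lay in where most mice stood. The log2 fold change was -0.69 ± 0.25 (SE) among SPF mice (adjusted p = 0.0426) and -0.68 ± 0.22 among GF mice (adjusted p = 0.0156), which is 1.61-fold lower in each. These single calls of 9 compare with 23.1% of all genes called in SPF and 30.8% in GF mice. Among the other 8 genes the log2 fold changes lay between -0.32 (Creld2) and 0.01 (Sdf2l1) in SPF mice and between -0.35 (Dnajb9) and 0.36 (Sdf2l1) in GF mice. Their 95% intervals included 0 except that of Xbp1 in GF mice, at -0.17 with an interval of -0.33 to -0.01 and an adjusted p of 0.107. Without the libraries against their labels, the Herpud1 difference was -0.79 ± 0.25 in SPF mice (adjusted p = 0.0147) and -0.70 ± 0.23 in GF mice (adjusted p = 0.0165).

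With ZT as a covariate the Herpud1 differences were -0.83 ± 0.23 in SPF and -0.74 ± 0.19 in GF mice, and Dnajb9 was also called in GF mice (-0.43 ± 0.14, adjusted p = 0.0109), where 37.7% of all genes were (28.1% in SPF mice). Leaving out the libraries against their labels as well, Creld2 was called in SPF mice (-0.43 ± 0.16, adjusted p = 0.0303), beside 33.2% of all genes, and the calls of GF mice stayed at Herpud1 and Dnajb9 (37.6% of all genes). Herpud1 then stood at -0.91 ± 0.22 in SPF and -0.75 ± 0.19 in GF mice. The Herpud1 call of SPF mice was lost without the filter on low counts (adjusted p = 0.0688), and leaving out all mice numbered 1 cut the difference of SPF mice to -0.27 (adjusted p = 0.654) and that of GF mice to -0.34 (adjusted p = 0.448). Without mice numbered 3 the adjusted p in SPF mice was 0.0698 (-0.84), and without those numbered 2 it was 0.157 in GF mice (-0.57).

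**Figure D3:**
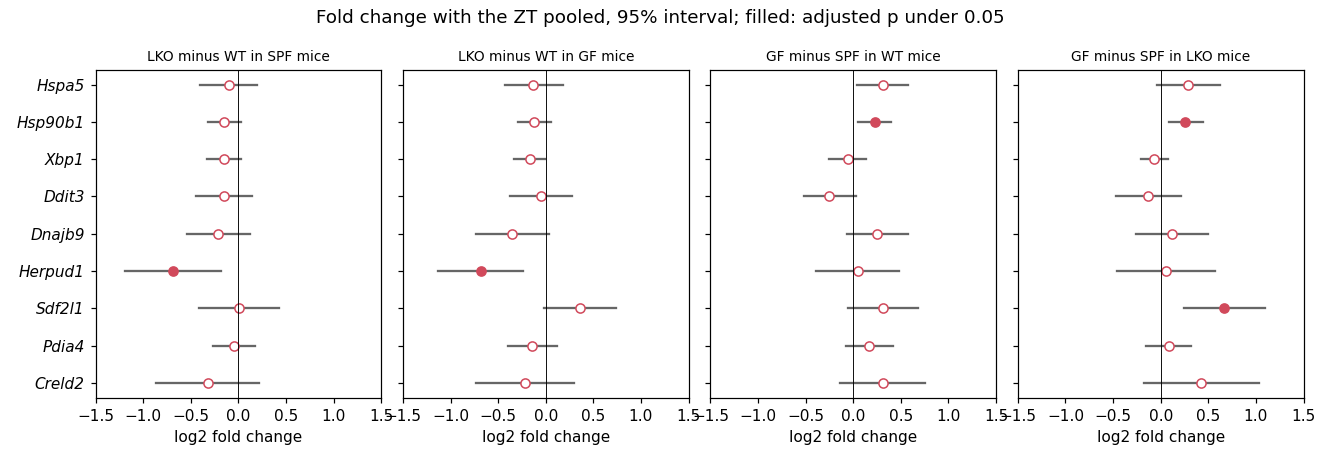
Log2 fold change (x axis) of each gene in the 4 comparisons with all ZT pooled, with 95% intervals from the quasi-likelihood fit, and filled where the adjusted p was under 0.05. Herpud1 sits at -0.69 and -0.68 in the genotype panels, and Hsp90b1 at 0.23 and 0.26 and Sdf2l1 at 0.67 in LKO mice in the microbial panels.

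By ZT, the members called lower in LKO mice were called at ZT2 or ZT6, in the light. At ZT6 all 9 genes were lower in LKO than in WT mice in SPF (median difference in mean log2 CPM of -0.35) and in GF mice (-0.47), when 50.6% and 48.4% of all genes were lower and the median over all genes was -0.00 and 0.01. At ZT14 the medians were -0.13 in SPF and 0.21 in GF mice, with 7 and 3 genes lower, and at ZT22 they were -0.12 and -0.36, with 7 lower in each. At ZT18 the SPF median was -0.15, or 0.09 without the library that looked WT. No member was called in SPF mice at ZT10, ZT14, ZT18 or ZT22, where 11.9%, 0%, 0.0150% and 3.31% of all genes were, nor in GF mice at ZT10, ZT14 or ZT22, where 13.1%, 6.10% and 4.44% were. Over the 54 combinations of gene and ZT, 7 in SPF and 14 in GF mice had an unadjusted p under 0.05, of which 4 and 6 were called, and DESeq2 called 4 and 6. In a fit of all 72 libraries sharing 1 estimate of the spread, 0 were called in SPF mice and 2 in GF mice, Creld2 and Dnajb9 at ZT6 (adjusted p = 0.0248 and 0.0250).

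Creld2 at ZT6 in GF mice was the clearest of these differences. GF WT mice read 44.1, 36.4 and 66.8 CPM and GF LKO mice 17.7, 18.6 and 17.6, so the groups did not overlap. The log2 fold change was -1.46 ± 0.23 (adjusted p = 0.00129, when 11.7% of all genes were called at this ZT), it was -1.17 ± 0.20 without GF WT replicate 3, which went against its label (adjusted p = 0.00228, with 9.69% of all genes called), and the call held with each of the 12 libraries of that ZT left out. Herpud1 at ZT6 read 616, 561 and 427 CPM in GF WT against 221, 292 and 253 in GF LKO mice (-1.07 ± 0.25, adjusted p = 0.0153). It read 602, 364 and 268 in SPF WT against 187, 224 and 162 in SPF LKO mice (-1.12 ± 0.25, adjusted p = 0.0167, with 7.26% of all genes called), again with no overlap. Without GF WT replicate 3 the values were -1.21 ± 0.26 in GF and -1.12 ± 0.24 in SPF mice, and Creld2 was then called in SPF mice too (-0.65 ± 0.18, adjusted p = 0.0399, with 10.4% of all genes called). Each was lost without GF or SPF WT replicate 1 or without LKO replicate 1 or 3 of its own microbial status, with adjusted p up to 0.0702 in GF and 0.0914 in SPF mice.

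Dnajb9 at ZT6 read 147, 69.9 and 164 CPM in GF WT and 54, 61.9 and 73.5 in GF LKO mice, which overlapped (-1.01 ± 0.26, adjusted p = 0.0245), and Hspa5 1052, 924 and 1381 against 664, 722 and 728, which did not overlap (-0.67 ± 0.19, adjusted p = 0.0337). Neither was called without GF WT replicate 3, nor without GF WT replicate 1 or GF LKO replicate 1 or 2, and Hspa5 also not without GF LKO replicate 3 (adjusted p up to 0.0984 for Dnajb9 and 0.119 for Hspa5). Xbp1 at ZT6 read 251, 310.0 and 245 in SPF WT and 217, 174 and 187 in SPF LKO mice (-0.48 ± 0.14, adjusted p = 0.0490), the only call for Xbp1 in any comparison. It was kept in 3 of 12 fits that left out 1 library, those without GF WT replicate 3, SPF LKO replicate 1 or GF LKO replicate 1, and its adjusted p rose to 0.204 in the rest.

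At ZT2, Herpud1 read 585, 198 and 481 CPM in SPF WT and 118, 160 and 131 in SPF LKO mice (-1.62 ± 0.40, 3.08-fold lower, adjusted p = 0.0259, with 6.89% of all genes called). Ddit3 read 8.64, 4.68 and 5.95 against 3.50, 3.01 and 3.29 (-0.97 ± 0.27, adjusted p = 0.0487). The SPF groups did not overlap in either gene. The Herpud1 call was lost without SPF WT replicate 1 or 3 or any SPF LKO replicate (adjusted p up to 0.110), and the Ddit3 call held in 3 of 12 such fits, those without SPF WT replicate 2 or GF WT replicate 1 or 3, with adjusted p up to 0.228. In GF mice Dnajb9 at ZT2 read 103, 107 and 76.7 in WT and 64.1, 69.3 and 63.5 in LKO mice (-0.55 ± 0.13, adjusted p = 0.0242, with 4.21% of all genes called), a call lost without GF WT replicate 1 or 2 or any GF LKO replicate (adjusted p up to 0.113).

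Sdf2l1 was the only gene called higher in LKO mice. At ZT18 it read 39.5, 50.8 and 40.8 CPM in GF WT and 76.5, 97.3 and 79.0 in GF LKO mice, with no overlap (0.97 ± 0.25, 1.96-fold higher, adjusted p = 0.0308, with 8.43% of all genes called). Without SPF LKO replicate 1 of that ZT, which looked WT, the adjusted p was 0.000498 (11% of all genes called), and the call was lost when any of the 6 GF libraries was left out (adjusted p up to 0.117). SPF mice at ZT18 read 40.6, 54.5 and 51.4 in WT and 28.2, 61.6 and 65.1 in LKO, where the lowest value belonged to the library that looked WT.

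The members called between GF and SPF mice were chaperones, higher in GF mice, at no larger share than all genes in the fits without covariate. With ZT pooled, 7 of the 9 genes were higher in GF than in SPF mice in either genotype. Hsp90b1 ran from 555 through a median of 719 to 1021 CPM in SPF WT and from 573 through 825 to 1352 in GF WT mice (0.23 ± 0.09, 1.17-fold, adjusted p = 0.0402), the single call of 9 when 31.8% of all genes were called. In LKO mice it ran from 491 through 609.7 to 933 in SPF and from 509.6 through 762 to 1107 in GF (0.26 ± 0.09, adjusted p = 0.0159). Sdf2l1 was the larger change of LKO mice, from 14.0 through 24.7 to 65.1 in SPF to 15.8 through 43.6 to 97.3 in GF mice (0.67 ± 0.21, 1.59-fold, adjusted p = 0.0132). These 2 calls of 9 stand beside 36.4% of all genes. The ranges of all these groups overlapped.

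Sdf2l1 in WT mice differed by 0.31 ± 0.18 (adjusted p = 0.189), and the test of whether the effect of genotype depended on microbial status gave 0.34 ± 0.29 (adjusted p = 0.966), so no difference between the genotypes was shown. That test called 0 of the 9 genes (0.438% of all genes), with 0 at an unadjusted p under 0.05 and 0 by DESeq2, and its 95% interval for Herpud1 was -0.69 to 0.68. With ZT as a covariate 2 genes were called in WT (Hspa5 at 0.34 ± 0.10 and Hsp90b1, beside 37.8% of all genes) and 4 in LKO mice (Hspa5 at 0.27 ± 0.09, Hsp90b1, Sdf2l1 at 0.66 ± 0.13 and Creld2 at 0.41 ± 0.17, beside 43%). Without the libraries against their labels in that fit, WT mice also gained Sdf2l1 (0.41 ± 0.15) and Pdia4 (0.22 ± 0.09), beside 39.1% of all genes, and in LKO mice the called genes were again Hspa5, Hsp90b1, Sdf2l1 and Creld2 (42.3%). The Hsp90b1 call in WT mice was lost when mice numbered 1, 2 or 3 were left out (adjusted p of 0.0902, 0.150 and 0.146), as it was in LKO mice (0.0628, 0.0690 and 0.0670). The Sdf2l1 call in LKO mice was lost without those numbered 1 (adjusted p = 0.105).

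The remaining genes gave no call between GF and SPF mice. Herpud1, the gene that moved with genotype, differed by 0.05 ± 0.21 in WT and 0.06 ± 0.25 in LKO mice, with intervals of -0.39 to 0.48 and -0.46 to 0.57. Ddit3 and Xbp1, the transcription factors, were the 2 genes that were lower in GF mice, at -0.25 ± 0.14 and -0.06 ± 0.09 in WT and -0.13 ± 0.17 and -0.07 ± 0.07 in LKO mice, none of them called. At single ZT, edgeR called 0 of 54 gene and ZT combinations in WT and 0 of 54 in LKO mice, with 11 and 8 at an unadjusted p under 0.05, and DESeq2 called 3 and 0. From ZT2 to ZT22 the share of all genes called was 10.1%, 2.62%, 2.89%, 0.0751%, 0.983% and 0.516% in WT mice, and 8.92%, 0.309%, 0.982%, 0.0601%, 3.71% and 2.25% in LKO mice. The median difference of the 9 genes in WT mice was largest at ZT22 (0.52, beside -0.02 over all genes), where GF WT Hspa5 read 1577, 990.1 and 1755 CPM against 1049, 832 and 693 in SPF WT mice. Leaving out single libraries made calls there and elsewhere: Hspa5 in WT mice at ZT22 without SPF WT replicate 1 (0.94, adjusted p = 0.0476), Herpud1 and Creld2 in WT mice at ZT6 without SPF WT replicate 1 (0.78 and 1.02, adjusted p = 0.0465 and 0.0306), Sdf2l1 in LKO mice at ZT2 without SPF LKO replicate 2 (0.98, adjusted p = 0.0473) and Herpud1 in LKO mice at ZT10 without GF LKO replicate 1 (0.92, adjusted p = 0.0447).

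The 9 genes were then compared between mice that shared group and ZT, by correlating their deviations in log2 CPM from the 24 group means over the 72 libraries. These points share library and depth, so the values are descriptive. Among the 6 chaperones and folding proteins r ran from 0.28 (Hsp90b1 with Dnajb9) to 0.92 (Hspa5 with Creld2). Hspa5 went with Sdf2l1 at 0.83, with Dnajb9 at 0.73, with Hsp90b1 at 0.72 and with Pdia4 at 0.69, while Dnajb9 with Pdia4 was at 0.47. Herpud1 went most closely with Ddit3 (0.69) and Dnajb9 (0.68). Xbp1 stood apart, with r from -0.54 to -0.16 against the other 8, the lowest with Herpud1. SPF WT replicate 3 at ZT22, singled out after its values were seen, had the lowest Herpud1 of its 3 mice (111 CPM beside 744 and 540.2), the lowest Dnajb9 (53.4 beside 142 and 123) and the highest Xbp1 (303 beside 158 and 167).

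**Figure D4:**
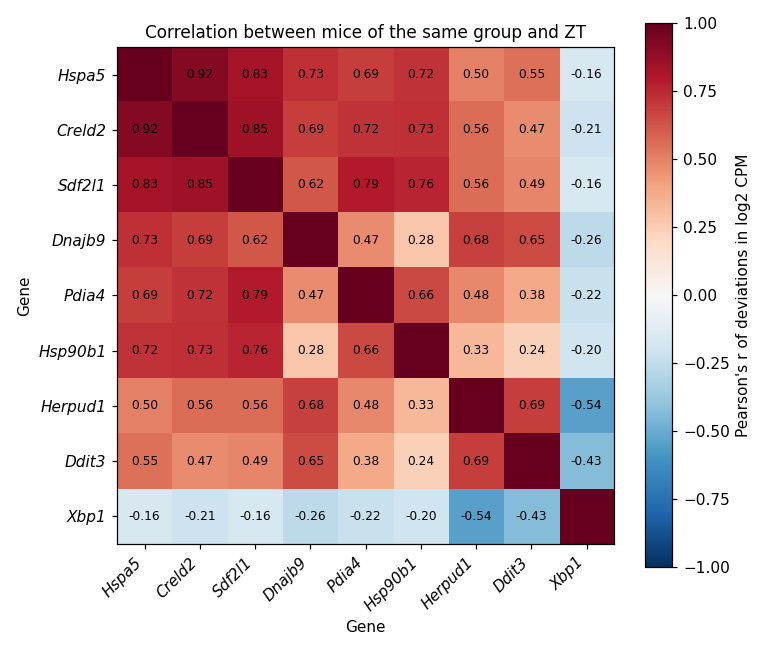
Pearson's r between each pair of genes (colour from -1 to 1, value in each cell), over deviations in log2 CPM of 72 libraries from the 24 means of their group and ZT. The chaperone block reaches 0.92 for Hspa5 with Creld2, and the Xbp1 row is negative throughout, down to -0.54 with Herpud1.

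Over all 72 libraries, the 8 other genes whose log2 CPM followed the mean of the 9 z-scored genes most closely, of 14627 compared, were Manf (r = 0.91, and 0.93 over the 24 group means), Ubfd1, Hyou1 and Dnajb11 (0.89, 0.89 and 0.88), Hsph1 (0.87), Uso1 (0.85), Srprb and Stip1 (0.84 each). Manf, Hyou1 and Dnajb11 are known ER-resident folding proteins and Srprb a subunit of the signal recognition particle receptor, while Hsph1 and Stip1 are chaperones of the cytosol. Within the set, r with that mean was 0.96 for Creld2 and 0.94 for Hspa5, against 0.63 for Ddit3 and 0.11 for Xbp1. Each member is part of that mean, which raises its r, so these values do not compare with those of the 8 other genes.

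The rest of the pathway was described through 5 lists that leave out the 9 genes. Between GF and SPF mice the called genes of the secretion, folding and degradation lists were all higher in GF mice. Of 19 genes of ER translocation and early secretion, 11 were higher in GF WT and 13 in GF LKO mice and 0 lower (14.2% and 18.1% of all genes were called higher, and 17.7% and 18.4% lower), with list medians of 0.19 and 0.23 beside -0.02 over all genes. The translocon subunit Sec61g rose by 0.31 ± 0.09 in WT and 0.55 ± 0.09 in LKO mice, and the TRAP subunits Ssr2 (0.33 ± 0.06 and 0.40 ± 0.07) and Ssr4 (0.26 ± 0.06 and 0.39 ± 0.07) rose with it. Of 23 further ER chaperones and folding enzymes, 7 were higher in GF WT mice (11 with ZT as a covariate) and 11 in GF LKO mice, with 0 lower. Manf rose by 0.39 ± 0.15 and 0.49 ± 0.20 and the prolyl isomerase Ppib by 0.35 ± 0.05 and 0.44 ± 0.05. Of 17 genes of ER-associated degradation 4 and 5 were higher and 0 lower, led by Selenos (0.23 ± 0.06 and 0.36 ± 0.09) and Derl1 (0.21 ± 0.04 and 0.23 ± 0.04). The sensors had 1 of 10 genes higher in WT mice (Creb3, 0.27 ± 0.07) and 1 of 11 higher and 1 lower in LKO mice, and the PERK-ATF4 list 1 of 18 lower in WT (Atf3, -0.79 ± 0.25) and 1 higher and 1 lower in LKO mice. Without the libraries against their labels (14.2% and 18.2% of all genes higher, 17.9% and 18.4% lower), the PERK-ATF4 list had 1 higher and 2 lower in WT and 4 higher and 1 lower in LKO mice, and the sensors 2 higher and 0 lower, and 1 higher and 2 lower. The secretion list then had 10 and 13 higher, the folding list 10 and 10 and the degradation list 5 and 4, with 0 lower in each.

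Between genotypes the largest changes stood in the PERK-ATF4 list. Of 20 genes of the PERK-ATF4 arm, 18 were tested, and 3 were lower in SPF LKO mice (5 without the libraries against their labels) and 4 in mice of the GF LKO group, with 0 and 2 higher (11.5% and 15.2% of all genes were called lower, and 11.6% and 15.6% higher). Asns, the asparagine synthetase, fell by 1.55 on the log2 scale in SPF (SE 0.31, adjusted p = 0.000284) and by 2.89 in GF mice (SE 0.36, adjusted p = 3.10e-08). Trib3, a pseudokinase induced by ATF4 and CHOP, fell by 1.90 (SE 0.31) and 1.62 (SE 0.29), and Atf3 fell by 0.80 (SE 0.23) in SPF mice. Ddit4, an inhibitor of mTORC1 signalling, was higher in GF LKO mice (0.93 ± 0.29, adjusted p = 0.0122). Of the 23 folding genes 3 were lower in LKO mice under each microbial status, namely Pdia5 (-0.47 ± 0.10 and -0.38 ± 0.08), Txndc5 (-0.34 ± 0.08 and -0.45 ± 0.09) and Dnajc3 (-0.32 ± 0.08 and -0.30 ± 0.08), while 1 (SPF) and 4 (GF) were higher. Of the 11 sensors and transcription factors, 3 were called in SPF mice (2 higher, 1 lower) and 1 of the 10 tested in GF mice, and Creb3l3, a liver-enriched membrane-bound factor, was lower in each (-0.32 ± 0.06 and -0.42 ± 0.06). The secretion list had 1 gene higher in LKO mice under SPF and 5 under GF conditions, and 0 lower, and the degradation list had 1 higher in SPF, and 2 higher and 1 lower in GF LKO mice. Without the libraries against their labels, when 13.9% (SPF) and 15.4% (GF) of all genes were called higher and 14.0% and 14.6% lower, the sensors had 1 higher and 2 lower in SPF LKO mice, the folding list 2 higher and 3 lower, and the degradation list 1 of each. In GF LKO mice the folding list then had 3 of each and the PERK-ATF4 list 2 higher and 3 lower, and the other lists had the counts given with all libraries. Whether the genotype effect depended on the microbiota was tested for all 5 lists, with 0 genes called.

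By time of day, 15% of all genes were rhythmic in SPF WT, 21.2% in SPF LKO, 26.7% in GF WT and 35% in GF LKO mice, and the counts of the lists stand beside these shares. Of the 23 folding genes, 7 were rhythmic in SPF WT, 14 in SPF LKO, 12 in GF WT and 18 in GF LKO mice, and 6, 14, 9 and 17 of these peaked in the dark. In GF WT mice 1 of the 9 members was called (3 without the library against its label). This list had 12 calls there against 7 in SPF WT mice, beside a rise over all genes as well (26.7% against 15%). Hyou1 changed 2.23-fold in SPF LKO (peak ZT17.6) and 3.21-fold in GF LKO mice (peak ZT16.4), and Manf 2.15-fold and 2.82-fold. Syvn1, the ubiquitin ligase of the degradation complex, led its list in SPF WT (2.12-fold, peak ZT16.6), SPF LKO (2.25-fold, peak ZT16.7) and GF LKO mice (3.09-fold, peak ZT15.4), and that list had 5, 4, 6 and 12 of 17 rhythmic genes (SPF first, WT before LKO). The secretion list had 5, 9, 2 and 12 of 19 in the same order, and the sensors 3, 3, 4 and 6 of 11, with Eif2ak3, the gene of PERK, at 2.17-fold and a peak at ZT13.2 in GF LKO mice. The PERK-ATF4 list had 3, 6, 8 and 9 rhythmic genes of 18, of which 3, 5, 5 and 3 peaked in the dark. In GF LKO mice its leading genes peaked in the light, Chac1 at ZT7.0 (7.04-fold), Ddit4 at ZT9.0 (4.10-fold) and Trib3 at ZT6.4 (2.54-fold). The 3 of the list that peaked in the dark there did so from ZT16.8 to ZT18.3. Ddit3, the member that this arm is known to induce, peaked at ZT15.0. Without the libraries against their labels the counts in SPF WT, SPF LKO and GF WT mice were 7, 12 and 12 for folding, 3, 4 and 6 for degradation, 4, 11 and 3 for secretion, 1, 4 and 4 for the sensors and 4, 4 and 8 for the PERK-ATF4 list (17.5%, 18.1% and 31.5% of all genes).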

How the data were processed

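RNA of 72 livers was sequenced from Illumina stranded mRNA libraries. The deposited values are raw counts of reads per gene, which the authors made with STAR 2.6.1b on mm10 and featureCounts 2.0.0 on exons of the Ensembl annotation. The counting did not use strand and left out reads that overlap several genes, so 68 bases of Ddit3 exon shared with Mars on the opposite strand and 415 bases of Hsp90b1 exon shared with 1810014B01Rik, also opposite, may have lost reads. Symbols were matched for 55394 of 55573 identifiers. Gene totals ranged from 17369927 to 22076113 per library, which for Ddit3 meant as few as 43 counts.

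From these counts, CPM with TMM factors and quasi-likelihood tests were computed with edgeR 4.0.16 in R 4.3.3, after filterByExpr, with Benjamini-Hochberg adjustment over all genes tested and a threshold of 0.05. Fits with all ZT pooled used the 36 libraries of 2 groups without covariate. Fits at 1 ZT used its 12 libraries, and the interaction used all 72. Rhythm was a cosine and sine term of 24 h (18 libraries) and its difference between groups (36 libraries). This rhythm test stands in for the eJTK test of the study, which was not run. SE of a fold change is its size divided by the root of F. Alternatives were DESeq2 1.42.0, limma 3.58.1 on variance-stabilised values, RLE factors, no filter, ZT as covariate or factor, a replicate block, all 72 libraries sharing 1 spread at each ZT, leaving out mice by number or singly, and leaving out the 4 libraries against their labels. Scripts were tested on simulated data.

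The members, lists and tests were chosen with earlier results of these data known. Named were all 9 members, per list up to 3 called genes with the largest change or amplitude, and the 8 genes most like the members. The labels give each library a replicate number, and the study's methods name separate mice. 0 pairs of libraries held identical counts.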

Additional observations from a re-analysis of the deposited data

Results flagged for a closer look

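No member of the set had a called difference between groups in its genotype effect or its 24 h rhythm with the filter on low counts. Among the pathway lists, 12 genes had a called difference in rhythm (quasi-likelihood test, adjusted p below 0.05). These were 4 of 87 list genes between genotypes in GF mice (4.60%, beside 6.38% of all genes) and 8 of 88 between microbial states in LKO mice (9.09%, beside 5.34%). At shares this low, 0 of 9 members does not set the members apart from the lists. Without the libraries against their labels, an alternative chosen after seeing the data, 4 (4.55%, beside 7.27%) and 7 (7.95%, beside 3.07%) were called, all among the 12, and Fkbp2 was lost (adjusted p = 0.0570). They were named after their values were seen. In GF mice, between genotypes, Atf6 (adjusted p = 0.00612) changed 1.22-fold in WT and 1.63-fold in LKO mice with a peak at ZT15.6, and Selenos (adjusted p = 0.00375) 1.19-fold and 1.52-fold with a peak at ZT16.3 in LKO mice. Cars (adjusted p = 0.00110) peaked at ZT1.0 in WT and ZT10.1 in LKO mice, and Creb3 (adjusted p = 0.0269) at ZT7.6 and ZT12.1.

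In LKO mice, between microbial states, Atf4 (adjusted p = 0.0223), the transcription factor of the PERK arm, changed 1.14-fold in SPF and 1.63-fold in GF mice with a peak at ZT16.8, and Pdia6 (adjusted p = 0.0456) 1.26-fold and 1.59-fold. Ddit4 (adjusted p = 0.0132) peaked at ZT15.1 in SPF and ZT9.0 in GF LKO mice. The secretion genes Ssr4 (adjusted p = 0.0139), Spcs1 (0.0196) and Sec11c (0.0362) and the folding genes Sdf2 (0.0307) and Fkbp2 (0.0281) had amplitudes of 0.20 to 0.25 in SPF LKO mice, with peaks from ZT13.0 to ZT14.1, and 0.08 to 0.18 in GF LKO mice, with peaks from ZT19.9 to ZT0.4 of the next cycle. Of these Ssr4 was also called rhythmic in GF LKO mice (adjusted p = 0.0171, peak ZT21.0).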

How the results depend on the processing

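Members called with ZT pooled numbered 1 in SPF and 1 in GF mice between genotypes, and 1 in WT and 2 in LKO mice between microbial states. In that order, the 3 fits without mice of 1 number gave 0 to 1, 0 to 2, 0 to 0 and 0 to 1. ZT as covariate gave 2 in GF mice, 2 in WT and 4 in LKO mice. Without the libraries against their labels and with that covariate (an alternative chosen after seeing the data), the counts were 2, 2, 4 and 4. No filter gave 0 in SPF mice.

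Replicate numbers were shared between groups. In the same order of comparisons, same-numbered libraries had median r of 0.02, -0.02, 0.02 and -0.00, with r above 0.1 in 5, 2, 5 and 4 of 18 pairs. Of 36 libraries, 17, 8, 10 and 11 correlated best with their own number. Whether the numbers pair some of the mice was not tested. The replicate block gave 2 in GF mice, 2 in WT and 4 in LKO mice, and at single ZT 1 of 54 in WT mice between GF and SPF.

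At single ZT, no filter on low counts gave 10 (SPF) and 13 (GF) of 54 between genotypes instead of 4 and 6, and 15 (WT) and 13 (LKO) between microbial states instead of 0. The cause was not tested. Shares of all genes are not given in this section, so its counts do not separate a change in the members from one over all genes. All 72 libraries in 1 fit gave 0, 2, 1 and 1 (the last 2 Hsp90b1 at ZT22), and DESeq2 gave 3 in WT mice between microbial states. Leaving out single libraries gave 2 to 5, 3 to 6, 0 to 2 and 0 to 1. These fits also called genotype differences at ZT2 and ZT22 in SPF mice, Creld2 without SPF LKO replicate 2 (-1.26) and Dnajb9 without SPF WT replicate 3 (-0.98), and Sdf2l1 at ZT6 in GF mice without GF WT replicate 1 (-0.68).

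Rhythmic members numbered 5 (WT) and 8 (LKO) among SPF mice, and 1 (WT) and 8 (LKO) among GF mice. With 12 libraries, after mice of 1 number were left out, they numbered 0 to 1, 0 to 6, 0 to 2 and 6 to 8. ZT as a 6-level factor gave 4 in SPF WT, 4 in SPF LKO, 0 in GF WT and 7 in GF LKO mice, limma on transformed values 2 in SPF WT, no filter 4 in GF WT, and leaving out the libraries against their labels 3 in SPF WT and 3 in GF WT mice. The difference in rhythm called 0 members in every fit run except without a filter in GF mice between genotypes, which called 2. The genotype effect differed between GF and SPF mice for 0 members in every fit run.

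Fold changes that turned sign were not called where they did. Over the 3 fits that left out mice of 1 number, the genotype difference in SPF mice ran from -0.17 to 0.02 for Hspa5, -0.10 to 0.03 for Pdia4, -0.26 to 0.05 for Ddit3 and -0.14 to 0.24 for Sdf2l1 (-0.02 with the replicate block), and that of Ddit3 in GF mice from -0.32 to 0.12. The microbial difference of Herpud1 ran from -0.01 to 0.14 in WT and from -0.14 to 0.42 in LKO mice. The difference of the genotype effects ran from -0.10 to 0.05 for Hspa5, -0.03 to 0.06 for Hsp90b1, -0.19 to 0.03 for Pdia4, -0.09 to 0.33 for Ddit3, -0.08 to 0.01 for Xbp1, -0.37 to 0.07 for Dnajb9 and -0.12 to 0.49 for Creld2 (-0.02 with ZT as covariate). Ddit3, at 43 to 257 counts, is limited most by depth.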
